A study of Mus musculus with 3 samples.

Results

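Nascent mesoderm cells were picked out of 3 single-cell RNA-seq libraries of mouse embryos at gastrulation, and 2380 of the 21573 cells kept (11.03%) qualified. A cell qualified when it held at least 3 UMIs of Mesp1 and at least 1 UMI of Eomes, Mixl1 or Lefty2, and no UMI of Sox17, Gsc, Hand1, Etv2, Tcf15 or Aldh1a2. A UMI is a molecular tag that marks 1 captured RNA molecule. The excluded genes mark definitive endoderm, the anterior streak, cardiac and extraembryonic mesoderm, blood and endothelial precursors, somitic mesoderm, and retinoic acid-producing mesoderm. The members were therefore chosen by their measured values, and the genes of the rule are described below with no test.

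The libraries were made from embryos at embryonic day 7.0 (E7.0), at E7.25, and from the posterior part of embryos at E7.5. The labels give all 3 the strain name ARC and the treatment entry Normal, and name no allele or agent. Cells were released with trypsin and run on the droplet-based 10x Chromium 3′ assay, version 3.0 or 3.1, and which version served which library, and how many embryos were pooled, are not given. Each stage had 1 library, so stage, library and, at E7.5, dissected region cannot be told apart, there is no replicate check, and no test between groups was possible. All intervals below are 95% intervals that cover counting error only.

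As the embryo gastrulates, epiblast cells enter the primitive streak, lose their epithelial junctions and leave it as migrating mesoderm. NODAL signalling with its co-receptor, and WNT and FGF signalling, drive this step, and the T-box factor Eomes switches on the bHLH factor Mesp1 in the cells that exit first. Mesp1 is best known for marking precursors of the heart and of head mesoderm, and Mesp1-positive cells also contribute to blood, vessels and extraembryonic mesoderm. Lefty2 is a secreted NODAL antagonist made by nascent mesoderm, Mixl1 is a homeobox factor of the streak, and Lhx1 is a LIM homeobox factor of nascent mesoderm and anterior mesendoderm.

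Mesp1 (ENSMUSG00000030544) lies on the minus strand of chromosome 7 at 79792241 to 79793788 (GRCm38, GENCODE M21), head to head with its paralogue Mesp2 (ENSMUSG00000030543) at 79810727 to 79813439 on the plus strand. Their promoter windows are shown because Mesp1 defines the cells and its neighbour Mesp2, which the rule did not use, was detected in the same cells. Each window runs from 250 bases before to 50 bases after the annotated start, read 5′ to 3′ on the gene's strand, from RefSeq (GRCm38.p6), at chr7:79793541-79793840 (minus strand) for Mesp1 and chr7:79810477-79810776 (plus strand) for Mesp2. Capitals mark the word TCACACCT, part of the site that T-box factors such as Eomes bind, in the Mesp1 window, and the word AATCCACA, bound by the NODAL effector FOXH1, in the Mesp2 window.
Mesp1 promoter: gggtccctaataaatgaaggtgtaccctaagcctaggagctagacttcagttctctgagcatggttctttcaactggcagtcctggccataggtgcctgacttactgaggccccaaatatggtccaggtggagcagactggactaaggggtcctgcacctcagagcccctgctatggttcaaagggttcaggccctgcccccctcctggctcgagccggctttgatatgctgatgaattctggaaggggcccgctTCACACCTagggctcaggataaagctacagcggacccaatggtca
Mesp2 promoter: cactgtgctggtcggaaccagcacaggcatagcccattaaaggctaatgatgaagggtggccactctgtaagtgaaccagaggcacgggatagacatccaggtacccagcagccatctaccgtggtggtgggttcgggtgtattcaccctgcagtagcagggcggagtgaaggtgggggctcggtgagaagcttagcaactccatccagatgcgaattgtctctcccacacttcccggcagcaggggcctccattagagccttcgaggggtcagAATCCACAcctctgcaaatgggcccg
Both words were searched on both strands of all windows, with AGGTGTGA and TGTGGATT as their reverse complements. TCACACCT was found in 419 of 32851 windows (1.28%) and AATCCACA in 281 (0.855%). Of the 5 marker genes, 3 had a window and only that of Mesp1 held the T-box word. Of the 30 listed regulators of nascent mesoderm outside the rule, 20 had a window, none held the T-box word and that of Mesp2 held the FOXH1 word. A match describes these letters only and does not show binding.

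The 3 libraries held 10232, 6173 and 11468 barcodes with 111010034, 48836272 and 92190474 UMIs at E7.0, at E7.25 and in posterior E7.5 tissue. Of these barcodes 7941, 5194 and 8438 had at least 1000 detected genes and at most 10% mitochondrial UMIs and were kept, with medians of 11295, 8298 and 9254 UMIs. Pairs of libraries shared 8 to 22 kept barcodes, and no member barcode was shared. Scrublet marked 13 (1.107%), 16 (4.03%) and 76 (9.394%) of the members as likely doublets, against 1.847%, 4.19% and 6.475% of the other kept cells. In posterior E7.5 tissue its automatic limit marked 0 barcodes, so the highest scores were taken up to an assumed rate. The shares of that library are therefore not comparable with those of the others.

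Nascent mesoderm cells made up a larger share of the library at E7.0 than at the later stages. They numbered 1174 at E7.0 (14.78%, exact binomial interval 14.01 to 15.58), 397 at E7.25 (7.643%, 6.935 to 8.4) and 809 in posterior E7.5 tissue (9.588%, 8.967 to 10.24). Because the rule reads UMIs, it depends on depth, and members had medians of 11152.5, 8546 and 9741 UMIs. When every cell was first thinned to 5000 UMIs, the rule took 1447 of 7327 cells at E7.0 (19.75%), 363 of 4685 at E7.25 (7.748%) and 719 of 7664 in posterior E7.5 tissue (9.382%). The order of the 3 libraries was the same in both versions. Thinning can also remove the UMIs of an excluded gene, and so it loosens the exclusions. At E7.0 the 1447 cells outnumber the 1134 members that were deep enough, so some of them held an excluded gene before thinning. The thinned shares are therefore no check of depth alone.

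The exclusions removed more Mesp1-positive cells than the rule kept. Cells with at least 3 Mesp1 UMIs numbered 3108 at E7.0, 1159 at E7.25 and 2321 in posterior E7.5 tissue, and 1869, 675 and 1346 of them held an excluded gene. At E7.0 the excluded gene found in most cells was Gsc, a homeobox factor of the anterior streak, in 948 cells, against 42 at E7.25 and 58 in posterior E7.5 tissue. Aldh1a2, the enzyme that makes retinoic acid, went the other way, with 23 cells at E7.0, 62 at E7.25 and 456 in posterior E7.5 tissue. Hand1, a factor of cardiac and extraembryonic mesoderm, was found in 633, 445 and 706 cells. Only 65, 87 and 166 cells were dropped because they held none of Eomes, Mixl1 and Lefty2.

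Of the genes of the rule, Mesp1, Lefty2 and Mixl1 lay close together in the 3 libraries and Eomes was higher at E7.0. Levels are UMIs summed over the members of a library and given as counts per 1000000 UMIs of all genes (CPM). Mesp1 stood at 1469 CPM at E7.0 (interval 1449 to 1489), 1354 CPM at E7.25 (1316 to 1392) and 1143 CPM in posterior E7.5 tissue (1120 to 1166). The rule sets a minimum for Mesp1 and no maximum, and in cells thinned to 5000 UMIs the median member held 7, 6 and 5 Mesp1 UMIs, with the highest at 25, 29 and 28.

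Lefty2 was at 419.8 CPM at E7.0, 321.6 CPM at E7.25 and 404.5 CPM in posterior E7.5 tissue, lowest at E7.25. Mixl1 was at 74.24, 95.8 and 91.65 CPM, lowest at E7.0. Eomes was at 163.2 CPM at E7.0, and at 85.04 and 90.03 CPM in the later libraries, whose intervals (75.8 to 95.08 and 83.8 to 96.59) overlap each other. The log2 ratio of Eomes was −0.94 for E7.25 over E7.0 (−1.12 to −0.77), just short of 2-fold. Lefty2 and its paralogue Lefty1 are close in sequence, so reads that match both may be split or dropped in counting. Lefty1, known from the midline and the anterior visceral endoderm, was at 2.22, 1.38 and 0.58 CPM.

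The partner genes were seldom all found in 1 cell. Among members thinned to 5000 UMIs (1134 at E7.0, 368 at E7.25 and 767 in posterior E7.5 tissue), 8.025%, 5.435% and 6.91% held all 3 of Eomes, Mixl1 and Lefty2. A single one of them was found in 46.3%, 55.43% and 55.93% of members, and in most of these it was Lefty2, alone in 31.48%, 36.68% and 40.94% of all members. Eomes alone was found in 13.05%, 11.14% and 9.387%, and Mixl1 alone in 1.764%, 7.609% and 5.606%. After thinning 7.848%, 11.41% and 11.08% of members held none of the 3, although each held at least 1 before thinning.

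**Figure D1:**
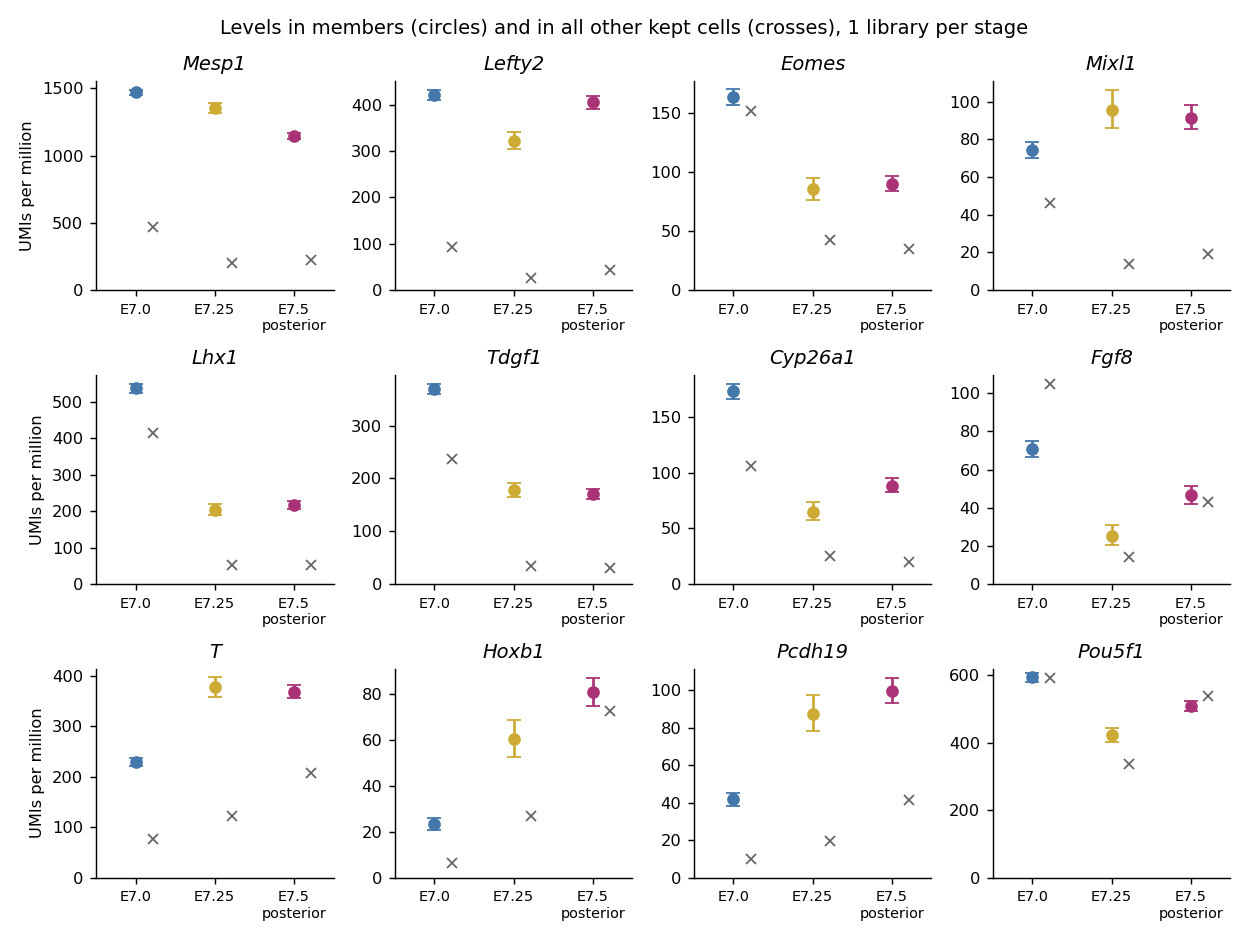
Levels of 12 genes in nascent mesoderm cells (circles, with 95% Poisson intervals) and in all other kept cells of the same library (crosses), in CPM on a linear axis from 0, with 1 library per stage. Lhx1 in members was 537.4 CPM at E7.0 and 203.2 and 216.4 CPM in the later libraries, while Hoxb1 went through 23.31, 60.46 and 80.96 CPM.

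The cells just inside the Mesp1 threshold differed from those just outside it by degree. Of cells that met the rest of the rule, 60 at E7.0, 46 at E7.25 and 111 in posterior E7.5 tissue held 2 Mesp1 UMIs, and 52, 35 and 80 held 3. Lefty2 was at 163.7 CPM in cells with 3 UMIs and 66.68 CPM in cells with 2 at E7.0, at 280 and 278.5 CPM at E7.25, and at 298.4 and 175.5 CPM in posterior E7.5 tissue. Lhx1, which the rule did not use, was at 276.8 and 216 CPM at E7.0, 143.9 and 115.8 CPM at E7.25, and 76.42 and 37.34 CPM in posterior E7.5 tissue. Pou5f1, the pluripotency factor of the epiblast, was lower inside the threshold in every library, at 659.9 and 854.9 CPM at E7.0, 462.8 and 537.7 CPM at E7.25, and 585.9 and 709.4 CPM in posterior E7.5 tissue. T, the T-box factor of the streak, was at 224.6 and 146.7 CPM at E7.0, 517.2 and 446.7 CPM at E7.25, and 485.2 and 468.6 CPM in posterior E7.5 tissue. These values are a description of the threshold and no test was made on them.

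**Figure D2:**
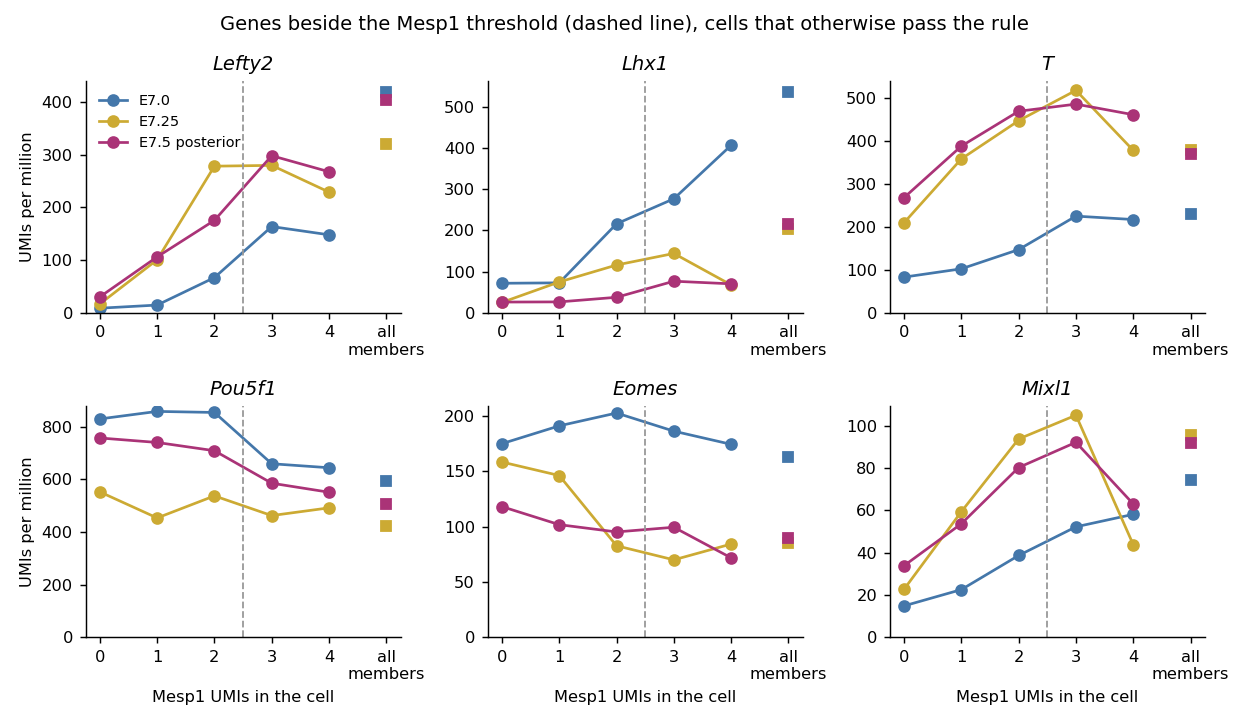
Levels of 6 genes, in CPM, in cells with 0 to 4 Mesp1 UMIs that met the rest of the rule, and in all members (squares), for each library. The dashed line is the threshold of 3 UMIs, and Lefty2 is lowest at 0 Mesp1 UMIs in each library (8.456, 16.53 and 29.92 CPM).

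Markers outside the rule were detected at all 3 stages, though position in the embryo was not measured in these dissociated cells. Of members thinned to 5000 UMIs, Lhx1 was detected in 73.63% at E7.0, 43.75% at E7.25 and 45.37% in posterior E7.5 tissue, and in 84.16%, 54.91% and 58.59% before thinning. Visceral endoderm cells, gated by at least 3 UMIs each of Apob and Ttr and 1 of Cubn or Amn, with medians of 12480, 8121 and 9216 UMIs, gave 40.79%, 14.47% and 15.43% after thinning. Some visceral endoderm is known to express Lhx1, so its share there is no measure of free RNA. Mesp2, a paralogue of Mesp1 best known from somite formation, was detected in 20.81%, 14.67% and 16.3% of members, and in 0.4093%, 0.3774% and 0.266% of visceral endoderm cells. Before thinning the member shares of Mesp2 were 36.8%, 24.43% and 27.81%.

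Snai1, the repressor of E-cadherin that drives epithelial cells to let go, was detected in 38.01%, 30.43% and 36.25% of thinned members, against 3.274%, 2.39% and 3.723% of visceral endoderm cells. T was detected in 47.71%, 60.05% and 60.76% of members, against 5.457%, 7.296% and 9.574% of visceral endoderm cells. Cdh1, which encodes E-cadherin, had the opposite pattern and was detected in 8.025%, 9.239% and 10.17% of members, against 30.15%, 35.6% and 38.56% of visceral endoderm cells. Before thinning the member shares were 63.97%, 43.83% and 57.11% for Snai1, 65.16%, 69.77% and 74.04% for T, and 16.61%, 15.37% and 19.16% for Cdh1.

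Nodal, Foxa2 and Msgn1 lay at the low end. Nodal, the ligand itself, was detected in 0.7937%, 0.8152% and 0.3911% of thinned members, and in 7.367%, 2.013% and 3.457% of visceral endoderm cells, some of which are known to express it. Foxa2, a factor of endoderm and node, was detected in 0.7055%, 0.2717% and 0.9126% of members. Msgn1, a factor of presomitic mesoderm, was detected in 0.1764% of members at E7.0, in 0 of 368 at E7.25, where 3 counts would be 0.8152% and the exact interval reaches 0.9974%, and in 0.2608% in posterior E7.5 tissue.

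**Figure D3:**
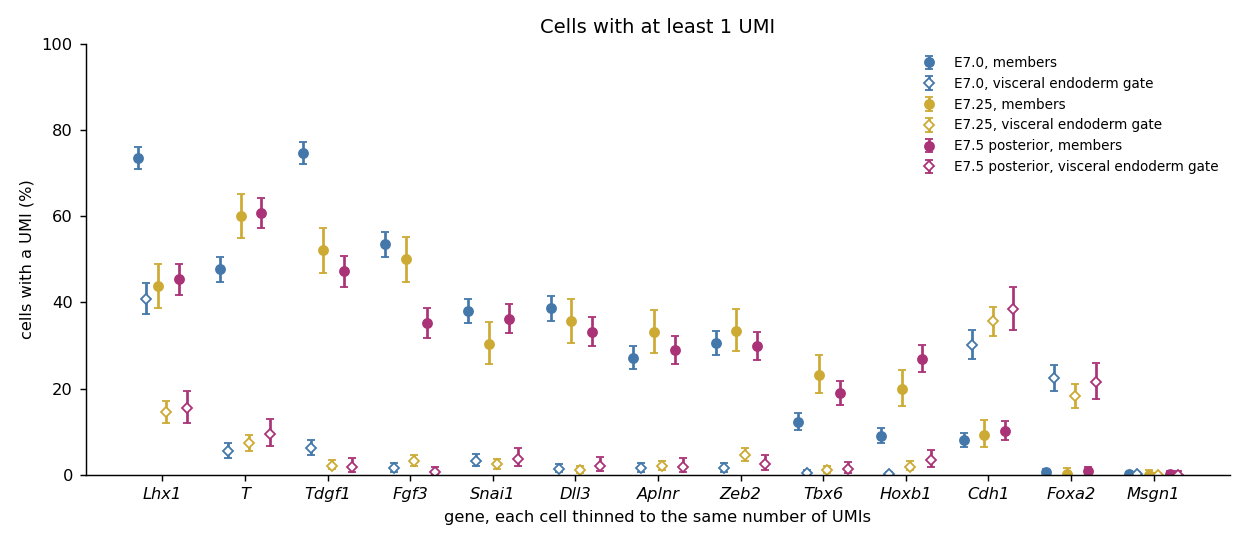
Share of cells with at least 1 UMI of each of 13 genes after thinning to 5000 UMIs, in nascent mesoderm cells (filled circles) and in visceral endoderm cells (open diamonds), per library. Tdgf1 falls between 47.2% and 74.69% in members and between 1.862% and 6.139% in visceral endoderm cells.

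Between the libraries, most genes of the nascent mesoderm cells differed by less than 2-fold, and many of those past 2-fold differed in the same way outside these cells. Genes were compared when at least 1 of the 2 libraries reached 20 CPM, and a ratio is given as the log2 of the later over the earlier library. For E7.25 over E7.0, 76 of 5313 genes were at least 2-fold higher (1.43%) and 82 at least 2-fold lower (1.54%). Of these, 35 of the 76 and 63 of the 82 were also past 2-fold in the same direction in the other kept cells. For E7.5 posterior over E7.25, 47 of 5330 genes were higher (0.882%) and 62 lower (1.16%), and 31 and 42 of them were so in the other kept cells. For E7.5 posterior over E7.0, only 9 of 5125 genes were higher (0.176%) and 29 lower (0.566%), and 8 and 25 of them were so in the other kept cells.

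The median log2 ratio over all genes was 0.09, −0.06 and 0.01 in these 3 comparisons, in the same order. Scaling with TMM factors, which assume that most genes do not differ, lowered every E7.25 over E7.0 ratio by 0.15 and turned its counts into 41 higher and 132 lower. It raised each E7.5 posterior over E7.25 ratio by 0.08 and lowered each E7.5 posterior over E7.0 ratio by 0.07.

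**Figure D4:**
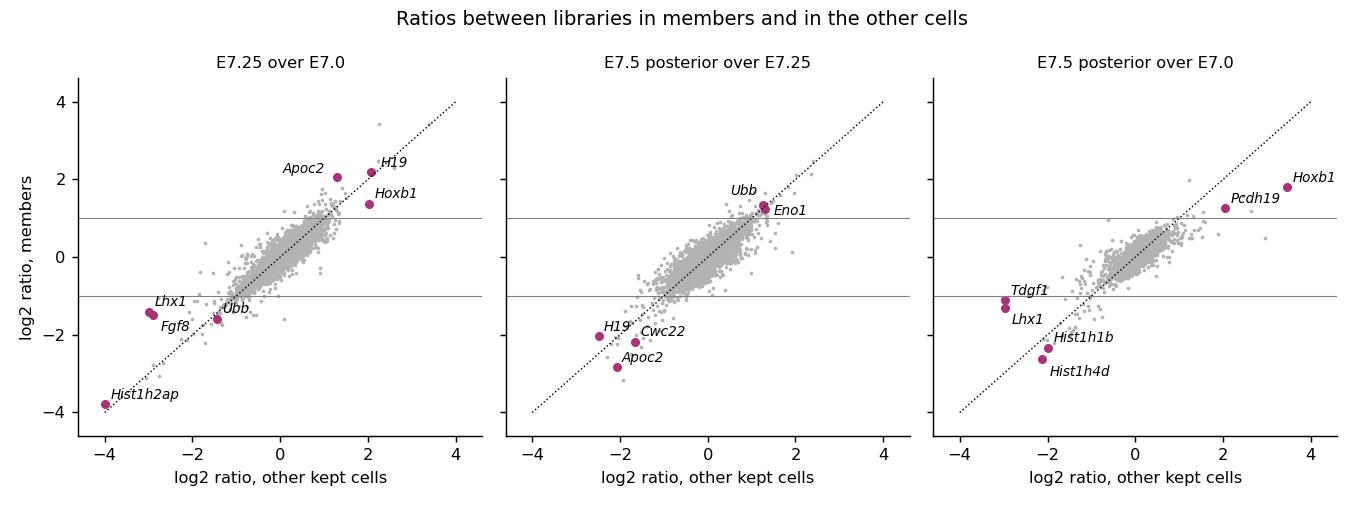
Log2 ratio between 2 libraries in nascent mesoderm cells (vertical) against the same ratio in all other kept cells (horizontal), 1 point per gene at 20 CPM or more, with equality dotted and 2-fold in grey. Lhx1 and Tdgf1 lie above the dotted line for E7.5 posterior over E7.0, with −1.31 and −1.12 in members and −2.98 and −2.97 in the other cells. Both sets of cells come from the same libraries.

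Lhx1 and Tdgf1 were both higher at E7.0 than at the later stages. Lhx1 was at 537.4 CPM at E7.0 (525.6 to 549.3), 203.2 CPM at E7.25 (188.8 to 218.4) and 216.4 CPM in posterior E7.5 tissue (206.7 to 226.5), so the later 2 libraries overlap. Its ratio was −1.40 for E7.25 over E7.0 and −1.31 for E7.5 posterior over E7.0. In the other kept cells Lhx1 was at 413.7, 52.21 and 52.61 CPM, a larger difference (−2.99 and −2.98). Tdgf1, the NODAL co-receptor also called Cripto, was at 369.3, 177.5 and 170.3 CPM in members and at 236.9, 34.17 and 30.32 CPM in the other kept cells. Its member ratios were −1.06 for E7.25 over E7.0 and −1.12 for E7.5 posterior over E7.0, and the first was −0.91 in members without visceral endoderm transcripts.

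Lhx1 was also high at E7.0 in Mesp1 cells that the rule leaves out. Those with Gsc held 968.9 CPM of Lhx1 at E7.0, 384.7 CPM at E7.25 and 521.4 CPM in posterior E7.5 tissue. Those with Sox17 held 831.9, 112 and 167.5 CPM. With all 6 exclusions lifted together, the Lhx1 ratio was −2.02 for E7.25 over E7.0 and −1.89 for E7.5 posterior over E7.0. Mesp2 stayed closer together, at 48.44, 36.44 and 36.82 CPM. T was at 228.6 CPM at E7.0, 377.7 CPM at E7.25 and 368.5 CPM in posterior E7.5 tissue, a ratio of 0.69 for E7.5 posterior over E7.0 (0.62 to 0.76). Of the 23 measured regulators outside the rule, 1 was higher and 3 lower for E7.25 over E7.0, 0 and 0 differed for E7.5 posterior over E7.25, and 1 was higher and 2 lower for E7.5 posterior over E7.0. Their median log2 ratios were 0.05, 0.00 and −0.18. Over all genes 1.43% were higher and 1.54% lower in the first comparison, 0.882% and 1.16% in the second, and 0.176% and 0.566% in the third. The 1 higher regulator for E7.5 posterior over E7.0 was Foxc1 (30.78 against 14.75 CPM). Of these 2 libraries it reached 20 CPM only in posterior E7.5 tissue, so it is no support for a direction.

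Of the NODAL pathway, Tdgf1 and the receptor gene Acvr2b passed 2-fold. Acvr2b was at 66.83 CPM at E7.0, 146.9 CPM at E7.25 and 57.15 CPM in posterior E7.5 tissue, highest at E7.25, and its E7.25 over E7.0 ratio of 1.14 was 0.98 with TMM factors. The other kept cells held 66.18, 124.2 and 62.47 CPM of Acvr2b, so the E7.25 library was high there too. Smad4, the common mediator of NODAL and BMP signals, was at 40.82, 60.74 and 59.36 CPM. In the 6 measured members of the list 1 was higher and 1 lower for E7.25 over E7.0 (median −0.25), and 1 was lower for E7.5 posterior over E7.0 (median −0.14). Over all genes 1.43% were higher and 1.54% lower for E7.25 over E7.0, and 0.566% lower for E7.5 posterior over E7.0.

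None of the 13 or 14 measured WNT pathway genes passed 2-fold in any comparison, with medians of 0.18, −0.01 and 0.15. Sp5, a direct WNT target, was at 211 CPM at E7.0, 113.7 CPM at E7.25 and 153.9 CPM in posterior E7.5 tissue. Rspo3, a secreted enhancer of WNT signalling, was at 82.66, 128.1 and 127.7 CPM. Lef1, a nuclear WNT effector, was at 187.6, 212.6 and 202.6 CPM in members and at 61.92, 54.8 and 78.53 CPM in the other kept cells. Wnt3, the ligand needed to start the streak, was at 34.63, 26.78 and 23.35 CPM.

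The FGF ligand genes Fgf8 and Fgf5 were higher at E7.0. Fgf8, which streak cells need in order to migrate away, was at 70.8 CPM at E7.0, 25.12 CPM at E7.25 and 46.58 CPM in posterior E7.5 tissue, lowest at E7.25. Its ratio for E7.25 over E7.0 was −1.50 (−1.82 to −1.19) in members and −2.89 in the other kept cells. Fgf5, a ligand of the late epiblast, was at 33.14, 15.18 and 19.52 CPM, and its E7.25 over E7.0 ratio of −1.13 was −0.72 in members without visceral endoderm transcripts. Fgf3 was at 160.1, 156.3 and 100.5 CPM, lowest in posterior E7.5 tissue, and Fgf4 at 29.91, 30.92 and 24.97 CPM. The receptor gene Fgfr1 was at 72.96, 106 and 102.5 CPM. Of the FGF list, 0 of 12 measured genes were higher and 2 lower for E7.25 over E7.0, and none passed 2-fold in the other comparisons. Over all genes 1.43% were higher and 1.54% lower for E7.25 over E7.0. Of these 2 libraries Fgf5 reached 20 CPM only at E7.0, where it is higher. Its place in the count is therefore no support for a direction.

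In the BMP pathway only Id2, a target gene that encodes an inhibitor of bHLH factors, passed 2-fold, at 5.726 CPM at E7.0, 31.75 CPM at E7.25 and 17.89 CPM in posterior E7.5 tissue. Id2 reached 20 CPM only at E7.25, where it is highest, so its call is no support for a direction. For E7.5 posterior over E7.0 it was below the minimum and not counted. Id2 was highest at E7.25 in the other kept cells as well (29.9, 139.7 and 55.78 CPM). Id3 was at 136.6, 151 and 218.8 CPM, highest in posterior E7.5 tissue, and Id1 at 83.8, 85.31 and 112.6 CPM. The ligand gene Bmp4, known from extraembryonic tissue and posterior mesoderm, was at 2.36, 5.8 and 3.48 CPM.

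Of the genes of NOTCH signalling and segmentation, 1 passed 2-fold. Dll3, a ligand-like protein of presomitic mesoderm, was at 100.7, 91.11 and 93.97 CPM, and the ligand gene Dll1 at 32.74, 46.93 and 55.53 CPM. Hes7, a segmentation clock repressor, was at 21.83, 28.44 and 30.9 CPM. Hes1 was the only one of 9 measured genes past 2-fold, at 60.43 CPM at E7.0, 19.88 CPM at E7.25 and 34.62 CPM in posterior E7.5 tissue. In the other kept cells Hes1 was at 97.81, 24.13 and 41.27 CPM, the same order.

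Of the retinoic acid genes, Cyp26a1, which breaks retinoic acid down, was at 173.4 CPM at E7.0, 65.16 CPM at E7.25 and 88.52 CPM in posterior E7.5 tissue. Crabp1, a retinoic acid-binding protein gene, was at 86.83, 212 and 113.8 CPM, highest at E7.25, with the same order in the other kept cells (36.51, 88.06 and 64.92 CPM). Cyp26a1 and Crabp1 passed 2-fold for E7.25 over E7.0 in opposite directions (−1.41 and 1.29), and neither did in the other comparisons.

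Genes of the passage from epithelium to mesenchyme mostly differed by less than 2-fold between stages. Of 10 measured mesenchymal genes, 1 was higher for E7.25 over E7.0 and none passed 2-fold otherwise, with medians of 0.12, −0.04 and 0.02. Snai1 was at 102.1, 71.78 and 90.03 CPM in members, against 40.62, 20.09 and 28.8 CPM in the other kept cells. Fn1, the matrix protein fibronectin on which the cells migrate, was at 439.8, 406.1 and 450.7 CPM, against 190.7, 176.3 and 197.4 CPM. Zeb2 was at 74.84, 75.92 and 74.81 CPM and the N-cadherin gene Cdh2 at 88.86, 73.16 and 81.55 CPM.

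The gene past 2-fold was Sparc, a secreted matrix glycoprotein gene, at 77.2 CPM at E7.0, 161.5 CPM at E7.25 and 95.14 CPM in posterior E7.5 tissue. Its E7.25 over E7.0 ratio of 1.06 was 0.91 with TMM factors, and the other kept cells gave 136, 309.3 and 138 CPM. Of 8 measured epithelial junction genes only Spint2, an inhibitor of epithelial proteases, passed 2-fold between stages, at 29.91, 13.25 and 28.11 CPM. Epcam was at 110.2, 80.62 and 102.1 CPM in members, against 323, 231.6 and 252.3 CPM in the other kept cells, and Cdh1 at 20.68, 22.36 and 28.58 CPM, against 52.31, 65.67 and 73.12 CPM. The summed level of the 16 epithelial junction genes was 351.8, 367.7 and 358.8 CPM in members, against 1379, 1705 and 1165 CPM in the other kept cells.

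No gene of the migration list passed 2-fold between stages. For E7.25 over E7.0, 9 of 9 measured genes were above 0 (median 0.36), against 3092 of all 5313 genes (median 0.09). For E7.5 posterior over E7.25, 4 of 9 were above 0 (median −0.04), against 2241 of 5330, and for E7.5 posterior over E7.0, 8 of 8 were (median 0.26), against 2682 of 5125. The other kept cells gave list medians of 0.27, 0.39 and 0.47 in these comparisons. Aplnr, the apelin receptor gene of migrating mesoderm, was at 62.45, 80.07 and 71.56 CPM in members, against 18.94, 20.29 and 28.34 CPM in the other kept cells. Pdgfra, a growth factor receptor gene of early mesoderm, was at 44.06, 52.46 and 54.36 CPM, and the ephrin receptor gene Epha4 at 72.28, 100.2 and 101.3 CPM.

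Hoxb1, a Hox gene switched on early in the posterior streak, was at 23.31 CPM at E7.0 (20.92 to 25.9), 60.46 CPM at E7.25 (52.72 to 69.02) and 80.96 CPM in posterior E7.5 tissue (75.06 to 87.21), with no overlap between libraries. It was detected in 9.083%, 19.84% and 26.86% of thinned members (17.97%, 31.49% and 40.67% before thinning), against 0.1364%, 1.887% and 3.457% of visceral endoderm cells. Hoxb2 was at 11.18, 16.57 and 25.67 CPM and the posterior homeobox gene Cdx2 at 8.286, 18.5 and 24.86 CPM. For E7.5 posterior over E7.0 the ratios were 1.80 for Hoxb1, 1.20 for Hoxb2 and 1.58 for Cdx2, where 0.176% of all genes were past 2-fold higher. Only these 3 of the 19 listed Hox and Cdx genes reached 20 CPM, and Hoxb2 and Cdx2 did so only in posterior E7.5 tissue, where they are highest, so their count is no support for a direction. In the other kept cells the ratios of Hoxb1, Hoxb2 and Cdx2 were 3.45, 2.64 and 2.45. The E7.5 library is of posterior tissue, and stage and region cannot be told apart in these ratios.

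Of 7 measured paraxial mesoderm genes, 2 were past 2-fold higher for E7.25 over E7.0 (Pcdh19 and Tbx6), 2 for E7.5 posterior over E7.0 (Pcdh19 and Foxc1) and none for E7.5 posterior over E7.25. Over all genes the shares past 2-fold higher were 1.43%, 0.176% and 0.882% in that order. The list medians were 0.56 and 0.70 for the first 2 of these comparisons in members, and 0.59 and 1.47 in the other kept cells. Pcdh19, a protocadherin gene of paraxial mesoderm, was at 41.77 CPM at E7.0, 87.52 CPM at E7.25 and 99.9 CPM in posterior E7.5 tissue, lowest at E7.0, and its E7.25 over E7.0 ratio of 1.07 was 0.915 with TMM factors. Foxc1, a forkhead factor gene of paraxial mesoderm, was at 14.75, 21.81 and 30.78 CPM, a ratio of 1.06 for E7.5 posterior over E7.0 that was 0.87 when cells were thinned before the rule. Between E7.0 and posterior E7.5 tissue, Foxc1 reached 20 CPM only in the latter, where it is highest. Its place in the count is therefore no support for a direction. Foxc2 was at 26.61, 41.69 and 43.1 CPM. Tbx6, which sets cells on the path to presomitic mesoderm, was at 30.65, 61.84 and 46.23 CPM, and its E7.25 over E7.0 ratio of 1.01 was 0.86 with TMM factors.

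Of the 9 genes past 2-fold higher for E7.5 posterior over E7.0, 5 were Hoxb1, Hoxb2, Cdx2, Pcdh19 and Foxc1. The other 4, named here after their values were seen, were Ddit4 (22.07 against 9.84 CPM), Tubb3 (29.04 against 14.08 CPM), Trp53i11 (42.05 against 19.87 CPM) and Xist, the RNA that coats the inactive X chromosome. Of these 2 libraries, Hoxb2, Cdx2, Foxc1, Ddit4, Tubb3 and Trp53i11 reached 20 CPM only in posterior E7.5 tissue. Their direction is thus partly set by the minimum level.

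Myl7, a cardiac myosin light chain gene that is switched on early, was at 216.2, 272.2 and 195.5 CPM. Gata4 was at 30.52, 33.68 and 22.19 CPM and Gata6 at 43.05, 30.09 and 30.78 CPM, and none of these 3 measured cardiac genes passed 2-fold. The summed level of the 17 cardiac and lateral genes was 327.3, 392 and 294.8 CPM. The 15 blood and endothelial genes summed to 83.6, 90.83 and 80.27 CPM, with Etv2, which the rule excludes, and Cdh5 at 0 in all 3 libraries. Kdr, a receptor gene of blood vessel precursors, was at 24.72, 22.36 and 15.8 CPM. The 16 genes of anterior streak, endoderm and node summed to 642.7, 300.9 and 312.7 CPM (Lhx1 alone 537.4, 203.2 and 216.4 CPM), and Gsc and Sox17 were at 0 by the rule.

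Pou5f1 was still abundant, at 592.9, 422.7 and 507.7 CPM in members and 590.9, 335.9 and 538.6 CPM in the other kept cells. Sox2, a factor of the anterior epiblast, was at 4.51, 8.01 and 5.46 CPM and Nanog at 8.22, 2.76 and 8.36 CPM. Ifitm1, an early mesoderm membrane protein gene, was at 550, 751.5 and 748.4 CPM, while the germ cell gene Dppa3 was at 1.01, 0 and 0.35 CPM.

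Transcripts of visceral endoderm differed between libraries within members. The 18 genes of that list summed to 235.4 CPM at E7.0, 579.2 CPM at E7.25 and 146.8 CPM in posterior E7.5 tissue, with none at 0, against 29093.6, 29034.7 and 28611.9 CPM in visceral endoderm cells. Apoc2, an apolipoprotein gene, was at 27.69, 116.2 and 16.38 CPM in members and at 439.2, 1080 and 255.7 CPM in the other kept cells. Ttr was at 20.34, 68.19 and 16.26 CPM, highest at E7.25. Of the list, 6 of 8 measured genes were higher for E7.25 over E7.0, and all 8 were lower for E7.5 posterior over E7.25. Over all genes 1.43% were higher and 1.16% lower in these comparisons. Apob (10.71, 29.27 and 3.253 CPM) and Rbp4 (18.05, 57.15 and 17.66 CPM) reached 20 CPM only at E7.25, where they are highest. These counts are therefore no support for a direction. No more than 5 members per library (5, 5 and 1) also met the visceral endoderm gate. Members with no UMI of Ttr, Apoa1, Apoc2, Rbp4 and Apob were 653 (55.62%), 145 (36.52%) and 595 (73.55%). The part of free RNA or doublets in these levels was not tested.

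H19, an imprinted RNA of extraembryonic tissue, was also highest at E7.25, at 36.24 CPM at E7.0, 164.5 CPM at E7.25 and 40.19 CPM in posterior E7.5 tissue in members and 236.1, 997.2 and 178 CPM in the other kept cells. Phlda2, another imprinted growth gene, was highest in posterior E7.5 tissue, at 648.7, 912.5 and 1002 CPM in members. The 16 trophoblast genes summed to 206.1, 172.3 and 147.5 CPM in members, with Hand1 and Rhox9 at 0 in all 3 libraries, and Eomes, a gene of the rule, gave 163.2, 85.04 and 90.03 CPM of it.

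None of 17 S phase genes and none of 20 G2 and M phase genes passed 2-fold in any comparison, with medians between −0.13 and 0.16. Of 15 oxidative phosphorylation genes, Uqcrc1 was higher for E7.25 over E7.0 (145.6, 328.8 and 178.2 CPM) and Cox7c lower (1536, 733 and 1126 CPM), and none passed otherwise. Of 13 glycolysis genes only Eno1 passed, at 978.1 CPM at E7.0, 467.7 CPM at E7.25 and 1101 CPM in posterior E7.5 tissue, and visceral endoderm cells had 524.3, 254.3 and 588.9 CPM of Eno1, also lowest at E7.25.

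Some of the largest ratios belonged to genes that differed as much outside the members. Hist1h2ap was at 793.8 CPM at E7.0, 57.7 CPM at E7.25 and 180.7 CPM in posterior E7.5 tissue, with ratios for E7.25 over E7.0 of −3.78 in members, −3.99 in the other kept cells and −3.80 in visceral endoderm cells. Ubb, a polyubiquitin gene, was at 952.1, 316.9 and 796.9 CPM, with E7.25 over E7.0 ratios of −1.59, −1.44 and −1.66 in the same 3 sets of cells. Replication-dependent histone genes are near-identical copies whose RNAs mostly lack a poly(A) tail, so their levels are uncertain here. Fosb, Egr1 and Jun, genes of the immediate early response, were highest at E7.25. Fosb was at 2.021, 21.81 and 5.111 CPM, Egr1 at 7.747, 35.89 and 17.54 CPM and Jun at 67.3, 147.7 and 63.31 CPM.

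Within each library, the members were compared by their level of T. Members thinned to 5000 UMIs were split into those with at least 2 T UMIs (284 at E7.0, 144 at E7.25, 304 in posterior E7.5 tissue) and those with none (593, 147 and 301). The members with T made up 25.04%, 39.13% and 39.63% of thinned members. Of 4749 genes that reached 20 CPM in one set or the other in every library, 22 (0.463%) were at least 2-fold higher with T in all 3 libraries and 18 (0.379%) at least 2-fold lower. T itself set the split, and the cells of a library are not replicates, so the recurrence in 3 libraries is the only repeat. Visceral endoderm transcripts differed along the split. The 18 genes of that list summed to 185.9 CPM with T and 250.3 CPM without at E7.0, 258.3 and 764.6 CPM at E7.25, and 76.97 and 218.6 CPM in posterior E7.5 tissue. With T, 0, 2 and 3 of the 18 were at 0, Fgb in both later libraries, and without T 0, 0 and 1 were. In members with no UMI of Ttr, Apoa1, Apoc2, Rbp4 and Apob, a selection added after the data were seen, 27 genes were higher with T in all 3 libraries and 16 lower. These counts rest on fewer cells, 130 with T and 351 without at E7.0, 51 and 57 at E7.25, and 222 and 226 in posterior E7.5 tissue. The number of genes measured was not recorded for this selection, so no share is given.

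Several transcripts were higher in members with T, and the list of streak and epiblast exit, T included, had median log2 ratios of 0.94, 1.19 and 1.03. Fst, the secreted activin antagonist follistatin, was at 407.7 CPM with T and 116.4 CPM without at E7.0, 350 and 95.24 CPM at E7.25, and 323.7 and 103 CPM in posterior E7.5 tissue. Mixl1, a partner gene of the rule, was at 117.6 and 44.52 CPM, 172.2 and 31.29 CPM, and 152.6 and 36.54 CPM in the same order. Hes7 was at 56.34 and 6.071 CPM at E7.0, 54.17 and 4.082 CPM at E7.25, where only 3 UMIs were counted without T, and 50 and 21.26 CPM in posterior E7.5 tissue. Apln, the apelin ligand gene, was at 38.73 and 8.43 CPM, 44.44 and 4.08 CPM, and 39.47 and 7.97 CPM. Hoxb1 was at 34.51 and 13.49 CPM, 94.44 and 32.65 CPM, and 130.3 and 41.86 CPM.

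Lower with T in all 3 libraries were 1 of 3 measured cardiac genes, 1 of 7 paraxial genes (1 was higher), 0 of 3 extraembryonic mesoderm genes and 0 of 1 blood gene. Over all genes 0.379% were lower and 0.463% higher. The 17 cardiac and lateral genes, Myl7 included, summed to 96.48 CPM with T and 519.1 CPM without at E7.0. Their sums were 125 and 722.4 CPM at E7.25, and 107.2 and 563.5 CPM in posterior E7.5 tissue. The cardiac gene past 2-fold, Myl7, was at 41.55 CPM with T and 375 CPM without at E7.0, 48.61 and 548.3 CPM at E7.25, and 32.24 and 439.2 CPM in posterior E7.5 tissue. Sfrp1, a secreted WNT antagonist gene, was at 5.634 and 58.35 CPM, 12.5 and 100.7 CPM, and 8.553 and 67.77 CPM. Crabp1 was at 40.14 and 118.7 CPM, 86.11 and 336.1 CPM, and 55.26 and 212 CPM. Foxc2 was at 9.155 and 32.72 CPM, 12.5 and 63.95 CPM, and 14.47 and 66.45 CPM. Lhx1 had ratios of −1.13, −1.08 and −0.86, the last short of 2-fold. In members without those visceral endoderm transcripts the ratios of Myl7 were −3.12, −3.84 and −4.13, and those of Crabp1 −1.51, −1.62 and −2.08.

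The genes of the rule other than Mixl1 did not follow the split. Mesp1 was at 1443 CPM with T and 1454 CPM without at E7.0, 1428 and 1307 CPM at E7.25, and 1201 and 1100 CPM in posterior E7.5 tissue. Lefty2 was at 413.4 and 443.8 CPM, 330.6 and 302 CPM, and 381.6 and 456.5 CPM. Pou5f1 was higher with T in every library without reaching 2-fold (ratios of 0.86, 0.99 and 0.99). Of 8 measured genes of streak and epiblast exit, 3 were past 2-fold higher in all libraries (Fst, Evx1 and T itself), against 0.463% of all genes. T set the split. Over all members Evx1 was at 31.75 CPM at E7.25 and 20.56 CPM in posterior E7.5 tissue, near the minimum of 20 CPM. Nothing is therefore read from this count. None of 17 S phase and none of 20 G2 and M phase genes passed 2-fold.

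Detection was also compared for pairs of genes in single cells. Among thinned members with a Mixl1 UMI, T was detected in 64.75% at E7.0, 84.96% at E7.25 and 81.9% in posterior E7.5 tissue, against 42.17%, 49.02% and 52.2% of members without. Lhx1 was detected in 65.25%, 41.63% and 42.92% of members with T, against 81.28%, 46.94% and 49.17% of those without. Tbx6 was detected in 10.37%, 13.04% and 12.99% of members with Eomes, against 14.16%, 27.67% and 21.46% of those without. Because a member needs 1 of Eomes, Mixl1 and Lefty2, shares that involve these 3 genes are shaped by the rule.

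**Figure D5:**
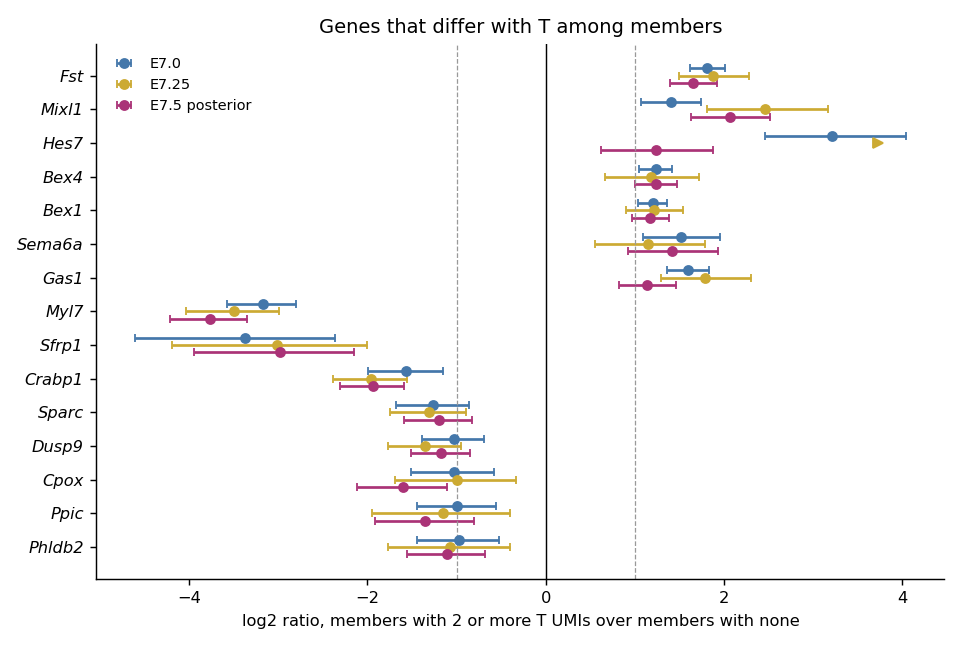
Log2 ratio of 15 genes between members with at least 2 T UMIs and members with none, in each library, with 95% counting intervals, and a triangle for the lower bound of Hes7 at E7.25. Myl7 lies between −3.77 and −3.17 and Fst between 1.65 and 1.88 in the 3 libraries, and the dashed lines mark 2-fold.

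Mesp1 cells with a gene of a later lineage were set beside the members as the nearest neighbours that the rule leaves out. These cells had at least 3 Mesp1 UMIs and at least 1 UMI of Hand1, Etv2, Tcf15 or Aldh1a2, with none of Sox17 and Gsc, and numbered 871, 583 and 1248. Since the rule made this contrast, nothing is read from the counts. Of 4756 genes, 1 was at least 2-fold higher in members in all 3 libraries (0.021%) and 13 at least 2-fold lower (0.273%), including Hand1 and Etv2, which the rule sets to 0. The 1 higher gene was Fgf4, a ligand of the streak, at 29.91 CPM in members and 13.22 CPM in lineage-positive cells at E7.0, 30.92 and 9.182 CPM at E7.25, and 24.97 and 11.67 CPM in posterior E7.5 tissue.

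Genes of extraembryonic mesoderm are given as a description, since the lineage-positive cells were gated on Hand1 and genes such as Bmp4 and Foxf1 reached 20 CPM only there. Bmp4 was at 2.358 CPM in members and 27.15 CPM in lineage-positive cells at E7.0, 5.798 and 101.4 CPM at E7.25, and 3.485 and 42.16 CPM in posterior E7.5 tissue. Foxf1, a forkhead factor gene of extraembryonic and lateral mesoderm, was at 6.467 and 32.63 CPM, 8.007 and 55.98 CPM, and 10.22 and 51.97 CPM. Phlda2 was at 648.7 and 1411 CPM, 912.5 and 1858 CPM, and 1002 and 2241 CPM. Lefty2, a partner gene of the rule, was higher in members, at 419.8 and 234.7 CPM, 321.6 and 89.01 CPM, and 404.5 and 125.7 CPM, short of 2-fold at E7.0 only. T was at 228.6 and 136 CPM, 377.7 and 201.7 CPM, and 368.5 and 252.6 CPM.

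Streak-like cells before Mesp1 were sought with a gate of at least 3 T UMIs, at least 1 of Cdh1, and none of Mesp1 and the excluded genes. The 66, 92 and 304 cells so found were led by node and cilia genes such as Foxj1, at 5.861 CPM in members and 327.6 CPM in the gate at E7.0, 0.8283 and 135.3 CPM at E7.25, and 5.924 and 103.4 CPM in posterior E7.5 tissue. Of 5003 genes 62 were higher in members in all 3 libraries (1.24%) and 139 lower (2.78%). With cells holding Foxa2, Foxj1, Chrd or Noto left out, a step added after the data were seen, 9, 50 and 194 cells remained. Against these, 35 of 4879 genes were higher in members (0.717%) and 43 lower (0.881%). The E7.0 values rest on 9 cells, and a gate that asks for T and Cdh1 sets those genes by choice.

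Members held more Lefty2 than the node-free streak-like cells, at 419.8 and 48.21 CPM at E7.0, 321.6 and 29.31 CPM at E7.25, and 404.5 and 12.63 CPM in posterior E7.5 tissue. Lefty2 is a partner gene of the rule, so this difference is shaped by the choice of members. Lhx1 was at 537.4 CPM in members and 137.7 CPM in streak-like cells at E7.0. At E7.25 the values were 203.2 and 6.764 CPM, with 3 UMIs counted in streak-like cells. In posterior E7.5 tissue they were 216.4 and 6.803 CPM. Snai1 was at 102.1 and 27.55 CPM, 71.78 and 9.018 CPM, and 90.03 and 20.41 CPM. Cyp26a1 was at 173.4 and 48.21 CPM, 65.16 and 9.018 CPM, and 88.52 and 5.345 CPM. Of 10 measured mesenchymal genes 4 were higher in members in all 3 libraries (Snai1, Twist1, Cdh2 and Fn1), against 0.717% of all genes. A gate that asks for Cdh1 and leaves out Mesp1 can favour cells poor in mesenchymal genes, and its E7.0 side has 9 cells. Nothing is therefore read from this count.

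Of 9 measured epithelial junction genes, 5 were past 2-fold lower in members in all 3 libraries, against 0.881% of all genes. They were Epcam, Cldn6, Cldn7, Spint2 and Cdh1, which the gate requires in the streak-like cells. A gate on Cdh1 can also favour cells rich in other junction genes, and the E7.0 side has 9 cells, so nothing is read from this count. Epcam was at 110.2 CPM in members and 282.4 CPM in streak-like cells at E7.0, 80.62 and 187.1 CPM at E7.25, and 102.1 and 243.4 CPM in posterior E7.5 tissue. Cdx2 was also lower in members, at 8.286 and 41.32 CPM, 18.5 and 130.8 CPM, and 24.86 and 201.6 CPM. Fst, which went with T inside the members, was lower in members than in streak-like cells, at 221.5 and 489 CPM, 210.4 and 574.9 CPM, and 206.8 and 458.7 CPM.

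Against all other kept cells, 37 of 4906 genes were higher in members in all 3 libraries (0.754%) and 89 lower (1.81%), and again nothing is read from the counts because the rule made the contrast. Beside Mesp1 and Lefty2, the genes higher by the most in the library where they differed least included Gas1, a growth arrest gene that encodes a membrane protein, at 143.9, 119.8 and 121.6 CPM in members, against 43.78, 27.92 and 42.98 CPM. Frzb, a secreted WNT antagonist gene, was at 87.24, 111 and 103.3 CPM in members, against 33.09, 23.68 and 35.58 CPM. Dll3 was at 100.7, 91.11 and 93.97 CPM, against 32.15, 18.3 and 34.44 CPM, and Fgf3 at 160.1, 156.3 and 100.5 CPM, against 51.69, 55.66 and 26.62 CPM. The genes lowest in members were mainly visceral endoderm genes such as Afp, at 4.85, 4.693 and 1.626 CPM in members, against 101.1, 99.98 and 50.31 CPM.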

How the data were processed

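Gene-by-cell matrices of raw UMI counts were deposited by the authors for 3 libraries, and Cell Ranger 6.0.1 made them, per the file headers. The genome build is not given in the sources used here. Of 32285 gene IDs, 32235 were found in GENCODE M21. Barcodes with at least 1000 detected genes and at most 10% mitochondrial UMIs were kept. The members and gene lists were chosen with earlier results of these data known.

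UMIs were summed over the members of a library and scaled to 1000000 UMIs (CPM). Ratios between 2 libraries, or between 2 sets of cells of 1 library, carry conditional binomial intervals, levels Poisson intervals and shares Clopper-Pearson intervals, all at 95% and for counting error only. A fold against 3 or fewer UMIs was treated as a bound. With 1 library per group no p-value was computed, and a gene counted as different past 2-fold at 20 CPM or more. Shares of cells with a UMI were compared after thinning cells to 5000 UMIs, which left out 40, 29 and 42 members. The ratio step was tested on simulated data.

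Scrublet (scanpy 1.11.5) marked 138, 217 and 570 kept barcodes as doublets. For posterior E7.5 tissue its automatic limit marked 0, so the highest scores were taken. They were removed only in an alternative. A gate for Tbx6-positive cells without Mesp1 held 1, 10 and 47 cells and was not compared.

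Named genes are those of the rule and Lhx1, up to 4 genes of each of 30 lists with the largest ratio, and the extremes at 50 CPM or more (12 per direction between libraries, 10 between sets of cells, 8 for the split by T). The extremes leave aside mitochondrial, ribosomal protein, Gm and Rik genes and those of X inactivation or the Y chromosome. Further list genes are named to describe each pathway and were chosen after their values were seen. Alternatives changed cell filters, the rule, scaling and the minimum level. Python 3.11.15, numpy 2.4.6, scipy 1.17.1, pandas 2.3.3, matplotlib 3.10.9, and edgeR 4.0.16 in R 4.3.3 for TMM factors only were used.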

Additional observations from a re-analysis of the deposited data

How the results depend on the processing

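The member shares depended on the rule more than on the cell filters. Without the excluded genes they were 37.05%, 15.4% and 19.38% at E7.0, at E7.25 and in posterior E7.5 tissue, and with no partner gene required 15.6%, 9.318% and 11.55%. With Mesp1 at 5 or more UMIs they were 13.6%, 6.219% and 7.917%, and with Mesp1 at 2 or more 8.529% at E7.25 and 10.9% in posterior E7.5 tissue. Thinning before the rule gave 19.75% at E7.0, a minimum of 500 genes 13.46% at E7.0 and 8.849% in posterior E7.5 tissue, and a 5% mitochondrial limit 8.429% at E7.25. The other 12 alternative shares stayed within the interval of the reported share.

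Counts of genes past 2-fold depended most on the minimum level. With no minimum beyond 4 UMIs, 1973 were higher and 336 lower for E7.25 over E7.0, 374 and 682 for E7.5 posterior over E7.25, and 897 and 294 for E7.5 posterior over E7.0. At 50 CPM the counts were 32 and 53, 29 and 34, and 3 and 16. TMM factors gave 41 higher and 132 lower for E7.25 over E7.0. For E7.5 posterior over E7.0 the count of higher genes was 29 without the excluded genes, 14 with thinning before the rule and 18 with mitochondrial and ribosomal protein genes out of the total. Thinning gave 117 higher for E7.25 over E7.0. The following 4 alternatives were chosen after seeing the data. Members with no UMI of 5 visceral endoderm genes gave 115, 77 and 14 higher genes in the 3 comparisons, and 27 higher and 16 lower in the split by T, against 22 and 18 in all members. The node-free streak-like gate gave 35 higher and 43 lower, against 62 and 139, and leaving out E7.25 moved no count across all libraries by over 1.5 times.

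Of the alternative list medians, 25 moved by over 1.5 times and 1277 did not, and of the alternative gene ratios 356 left the counting interval and 4312 did not. No value past 2-fold changed sign. Eomes passed 2-fold with no excluded genes (−1.43 for E7.25 over E7.0) and with TMM factors (−1.09), and Cyp26a1 did for E7.5 posterior over E7.0 with TMM factors (−1.04). No paired analysis was possible because each group has 1 library. With 397 members and 3622034 UMIs, E7.25 had the widest counting intervals, and its floor of 3 UMIs was 0.8283 CPM, against 0.2021 CPM at E7.0 and 0.3485 CPM in posterior E7.5 tissue. Stage, library, pooled embryos and, at E7.5, region cannot be told apart.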
